A study of Mus musculus with 22 samples.

Results

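The question addressed here is which genes, besides *Phf8* itself, moved in the same direction after deletion of *Phf8* in every tissue that was sequenced. All 22 samples of the series entered a single model, 11 from *Phf8* KO and 11 from WT, with tissue as a factor of 4 levels: embryonic stem cells (ESCs, 2 WT and 2 KO), neural progenitor cells (NPCs, 3 and 3), ventral striatum (STR, 3 and 3) and prefrontal cortex (PFC, 3 and 3). Of 39179 genes counted, 12324 passed the expression filter in each of the 4 tissues and were tested. A gene was called when the adjusted p-value (FDR) of edgeR's quasi-likelihood test was under 0.05 for the shared KO effect and its fold change had the same sign in ESCs, NPCs, STR and PFC. Besides *Phf8*, 3 genes met this rule, *Lipo3*, *Washc3* and *Pstpip2*, all lower in KO, and 0 were higher.

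PHF8 is a histone demethylase of the KDM7 family, encoded on the X chromosome. Its PHD finger binds trimethylated lysine 4 of histone H3 at active promoters, and its JmjC domain removes methyl groups from H3K9, H3K27 and H4K20, marks that go with repression. It is known as an activator of ribosomal DNA and of E2F targets in dividing cells, and mutations of the human gene cause X-linked intellectual disability with cleft lip or palate.

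All samples carried a mixed strain background, labelled B6x129SvJ (C57B6/129SvJae in the study's methods), and the KO allele lacks a pair of exons of the JmjC domain after Cre-mediated excision in male V6.5 ESCs. ESCs came from blastocyst outgrowths kept on gelatin or feeder cells, NPCs from E16.5 embryos grown as a monolayer, and both brain regions from mice 2 months old. The deletion is constitutive, so a KO tissue lacked full-length PHF8 throughout its development. No label ties samples to separate cultures or animals, so the p-values measure the spread between these samples, part of which may be technical. Each sample of brain is a mixture of cells, in which fewer cells of a type and less RNA per cell cannot be told apart.

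Sequencing gave 5898286 to 15539811 counted reads a sample, with the brain samples the shallower (5898286 to 10148073). Markers placed each sample in its labelled tissue: the summed level of 8 pluripotency genes was 4985 to 6383 CPM, the count relative to the TMM-normalised library size, in ESCs and at most 24.6 CPM elsewhere, and 8 striatal genes summed to 1485 to 1987 CPM in STR against 239 to 277 CPM in PFC. Some libraries stood apart from their group. Summed levels of 7 fibroblast genes were 3831 and 4707 CPM in the WT and KO ESC samples numbered 2, against 171 and 160.2 CPM in those numbered 1. In STR KO sample 1, 10 hypothalamic genes summed to 231 CPM, where the 3 WT STR samples had 18.02 to 21.3 CPM. The lowest KO STR sample had 29.2 CPM, so every KO STR sample lay above every WT one. In KO STR samples 2 and 3 the higher sum lay in *Oxt*, *Avp* and *Trh*. *Pomc* had 4.69 and 3.70 CPM there against 3.94 to 6.78 CPM in WT STR, and the remaining members had at most 0.51 CPM. The Y-linked gene *Ddx3y* lay between 4.84 and 19.6 CPM in KO ESCs and between 74.5 and 89.4 CPM in WT ESCs, and in NPCs it ranged from 26.5 to 207 CPM among WT samples. *Eif2s3y* and *Uty* were likewise lower in KO ESCs, while *Kdm5d* overlapped. *Xist* ranged from 12.6 to 62.9 CPM in KO ESCs and from 15.5 to 49.6 CPM in WT ESCs. In NPCs *Xist* ranged from 0.71 to 24.3 CPM in KO and from 0.07 to 3.75 CPM in WT, and in brain it was at most 0.19 CPM. Oligodendrocyte genes (9 members) summed to 1688 to 1822 CPM in KO PFC and 2112 to 2789 CPM in WT PFC. The part of these differences in the results was not tested, but the counts without the libraries concerned are given with them.

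*Phf8* (ENSMUSG00000041229, chromosome X 151520672 to 151633859 of GRCm38, plus strand) checked the labels. Its level was 74.8 and 65.4 CPM in the 2 WT ESC samples and 17.04 and 23.2 CPM in the 2 KO ESC samples. In NPCs it was 40.5, 41.5 and 43.04 CPM in WT and 14.6, 16.4 and 15.7 CPM in KO. In STR the WT samples had 56.0, 49.3 and 52.3 CPM and the KO samples 22.9, 22.8 and 15.1 CPM. Every KO sample thus lay below every WT sample of its tissue, which held in PFC too, where WT had 50.8, 48.8 and 42.8 CPM and KO 22.8, 16.9 and 16.3 CPM. The shared log2 fold change was -1.46 (SE 0.08, FDR 9.49e-10 by edgeR's quasi-likelihood test), which leaves KO at 36.4% of WT. The counts are per gene and take in exons outside the deletion. The effect was largest in ESCs (-1.80), followed by NPCs (-1.42), STR (-1.37) and PFC (-1.34), and the test of a difference between tissues gave an unadjusted p of 0.257 in edgeR. The other members of the KDM7 family, *Phf2* and *Kdm7a*, which act on related repressive marks, had shared log2 fold changes of 0.05 (SE 0.05, FDR 0.912) and -0.04 (SE 0.12, FDR 0.985).

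The windows around the starts of 2 of the 3 called genes are shown because PHF8 is recruited to promoters, with every CpG dinucleotide in capitals. They are RefSeq sequences of GRCm38.p6, each 300 bases long and read 5′ to 3′ on the gene's own strand. The table of such windows held 9 of the 10 genes described below, the exception being *Pstpip2*.
Lipo3 promoter (chr19:33590262-33590561, minus strand): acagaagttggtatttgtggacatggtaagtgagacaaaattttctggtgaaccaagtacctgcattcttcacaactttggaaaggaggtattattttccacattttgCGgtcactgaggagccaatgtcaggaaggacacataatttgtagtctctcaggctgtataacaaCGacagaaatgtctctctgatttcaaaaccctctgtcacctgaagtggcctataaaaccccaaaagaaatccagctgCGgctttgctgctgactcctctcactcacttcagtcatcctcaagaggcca
Washc3 promoter (chr10:88200847-88201146, plus strand): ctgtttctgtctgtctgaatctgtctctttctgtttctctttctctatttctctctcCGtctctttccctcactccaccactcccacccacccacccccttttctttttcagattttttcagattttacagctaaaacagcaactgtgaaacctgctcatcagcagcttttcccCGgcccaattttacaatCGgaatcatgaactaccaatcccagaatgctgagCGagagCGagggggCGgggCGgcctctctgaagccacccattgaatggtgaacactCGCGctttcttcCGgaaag
The RefSeq start of *Lipo3* lies 172 kb from the start of the GENCODE gene matched to its counts by identifier, and the latter falls on the RefSeq start of *Lipo2*. The printed window is therefore that of the RefSeq gene *Lipo3* and not of the start given with its values below. The starts of *Angel2* and *Dcun1d1* lie 3.38 kb and 4.48 kb apart between these annotations, and those of the other 6 genes, *Washc3* included, at most 0.047 kb apart. This *Lipo3* window holds 3 CpGs and the *Washc3* window 10, where the median of 27025 promoters is 7. Over the 9 genes the number ranged from 3 (*Lipo3*) to 39 (*Tmf1* and *Dcun1d1*). Of the 4 listed starts of *Angel2* and the 3 of *Dcun1d1*, the first was used. The 27025 promoters were not limited to genes tested, whereas the 9 genes had passed the expression filter in 4 tissues. The 9 and all promoters are thus unlike sets, and no conclusion is drawn from their shares. Motifs were searched on both strands, and a match is only a description of the letters. The GC box GGGCGG was found in 7 of the 9 windows and in 35.9% of all promoters, and the CCAAT box CCAAT in 4 of 9 and 37.9% of all. A TATA box (TATAAA) stood in 2 of the 9, one of them *Lipo3*, against 14.2% of all. The E2F motifs TTTCCCGC and TTTGGCGC, found in 1.11% and 0.537% of all promoters, were in none of the 9 windows, nor was the ETS motif CCGGAAGT or AGGCCT, the core recognised by ZFX-type factors such as ZFP711, a partner of PHF8.

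The 4 genes past the threshold, *Phf8* included, were 0.0325% of the genes tested. *Lipo3* (ENSMUSG00000024766, chromosome 19 33555160 to 33761951, minus strand) is a member of the acid lipase family, whose best known enzymes hydrolyse lipid esters. In NPCs it measured 3.29, 3.28 and 3.65 CPM in WT and 1.83, 1.502 and 2.06 CPM in KO. In STR it was 17.2, 17.5 and 19.4 CPM in WT and 13.6, 10.9 and 13.4 CPM in KO. In PFC it was 8.12, 12.1 and 11.5 CPM in WT and 6.02, 5.80 and 4.66 CPM in KO. KO and WT samples were apart in these 3 tissues and overlapped in ESCs, where WT had 11.6 and 12.1 CPM and KO 8.29 and 12.1 CPM. The shared log2 fold change was -0.65 (SE 0.11, FDR 0.0237 by edgeR), or 63.6% of WT. By tissue it was largest in PFC (-0.94) and NPCs (-0.92), then STR (-0.51), and smallest in ESCs (-0.22). The locus overlaps *Lipo2* and the gene models *Gm8978*, *Gm8980* and *Gm27440* on the same strand, and reads shared among such near-identical copies could have been split or dropped in counting, so the identity of the copy that fell is uncertain.

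*Washc3* (ENSMUSG00000020056, chromosome 10 88201093 to 88246158, plus strand) encodes a subunit of the WASH complex, which drives actin assembly on endosomes. It was 30.02 and 30.1 CPM in WT ESCs and 27.6 and 25.8 CPM in KO ESCs. In NPCs it was 20.5, 20.5 and 20.4 CPM in WT and 15.9, 18.7 and 15.3 CPM in KO. In STR the WT values were 22.4, 23.9 and 25.7 CPM and the KO values 19.02, 21.9 and 19.4 CPM. The KO samples were lower than every WT sample in each tissue, with the widest separation relative to the spread in PFC, at 19.5, 18.5 and 19.1 CPM in WT and 14.9, 14.6 and 14.8 CPM in KO. The shared log2 fold change was -0.28 (SE 0.05, FDR 0.0237 by edgeR), or 82.3% of WT, and the tissue values lay between -0.17 in ESCs and -0.36 in PFC.

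*Pstpip2* (ENSMUSG00000025429, chromosome 18 77789914 to 77882879, plus strand) encodes an F-BAR protein of myeloid cells that binds membranes and actin, and its loss in mice causes autoinflammatory bone disease. Its level was low, at 7.16 and 6.16 CPM in WT ESCs and 6.14 and 4.33 CPM in KO ESCs. In NPCs it was 5.70, 6.66 and 6.42 CPM in WT and 3.66, 5.30 and 4.90 CPM in KO. In STR it was 5.63, 7.50 and 6.78 CPM in WT and 4.79, 4.18 and 5.13 CPM in KO. The groups were apart in all of these, if barely in ESCs, and again in PFC, where WT had 10.3, 10.8 and 12.7 CPM and KO 6.65, 7.85 and 7.26 CPM. The shared log2 fold change was -0.49 (SE 0.09), or 71.4% of WT, and its FDR of 0.0499 in edgeR lay next to the threshold. For microglia, the myeloid cells of brain, 8 marker genes summed to 471 to 499 CPM in KO STR and 482 to 504 CPM in WT STR, and to 415 to 448 CPM and 443 to 453 CPM in PFC. The part of this in the change of *Pstpip2* was not tested.

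**Figure D1:**
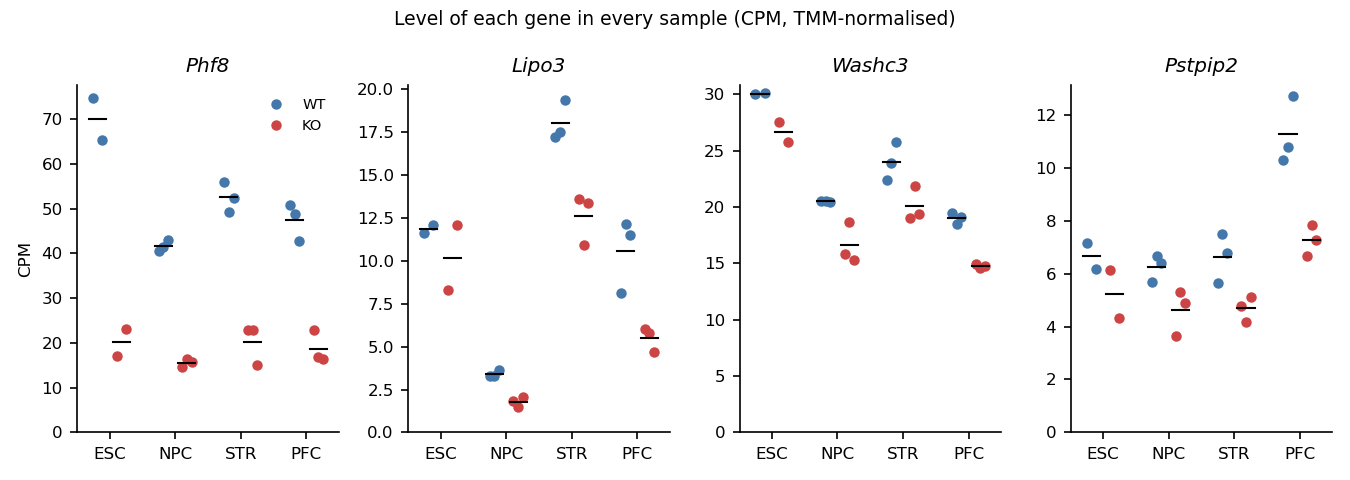
Level in CPM (vertical axis, linear from 0) of *Phf8* and the 3 called genes in each sample of ESCs, NPCs, STR and PFC, with WT in blue, KO in red and a black bar at the group mean. KO points lie below all WT points in every tissue except for *Lipo3* in ESCs, where a KO sample at 12.1 CPM reaches the WT values.

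The calls were sensitive to single libraries. When each of the 22 samples was left out in turn, *Phf8* passed in 22 fits, *Lipo3* in 12, *Washc3* in 11 and *Pstpip2* in 4, and the log2 fold change of *Lipo3* stayed between -0.73 and -0.61, that of *Washc3* between -0.30 and -0.27 and that of *Pstpip2* between -0.53 and -0.46. The number of genes called lower fell from 3 to 0 without NPC WT sample 1 or 2, NPC KO sample 1 or 3, STR WT sample 3, PFC WT sample 2, or any of the 3 PFC KO samples. It was 1 without STR KO sample 1, STR KO sample 2 or PFC WT sample 1, and 5 without ESC WT sample 2 or NPC KO sample 2. Without both ESC samples numbered 2 and STR KO sample 1, a choice made after seeing the data, 1 gene was called, *Lipo3* (log2 fold change -0.76, FDR 0.00339 in edgeR). Without ESCs altogether, 1 gene was called higher and 5 lower.

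The pairing of samples moved the count further. Same-numbered WT and KO samples deviated together in NPCs (r of their deviations from the group means 0.60, 0.74 and 0.57) and in ESCs (0.90 for the single possible pairing), whereas in STR and PFC r ran from -0.05 to 0.20. With the number as a block in ESCs and NPCs, 58 genes were called higher and 48 lower, and with a block in all 4 tissues 23 higher and 24 lower. In the other direction, STR and PFC samples of the same genotype and number also deviated together, with r from 0.19 to 0.50, and the labels do not say whether such samples share a mouse. With such pairs taken as 1 animal in limma-voom, 0 genes were called besides *Phf8*, and *Lipo3*, *Washc3* and *Pstpip2* had log2 fold changes of -0.57, -0.26 and -0.47 with an FDR of 0.287, 0.239 and 0.249. Limma-voom with every sample independent, a fit added after seeing the data, called 5 genes lower and 0 higher, the 3 genes among them. All 3 genes remained called under both blocks in edgeR.

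The plot of calls by setting shows this range. The absence of genes called higher depended on the tool: edgeR's quasi-likelihood test gave 0, with 449 genes (3.64%) higher at an unadjusted p under 0.05, beside 506 (4.11%) lower, whereas DESeq2 called 16 higher and 24 lower and edgeR's likelihood ratio test 14 higher and 21 lower.

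**Figure D2:**
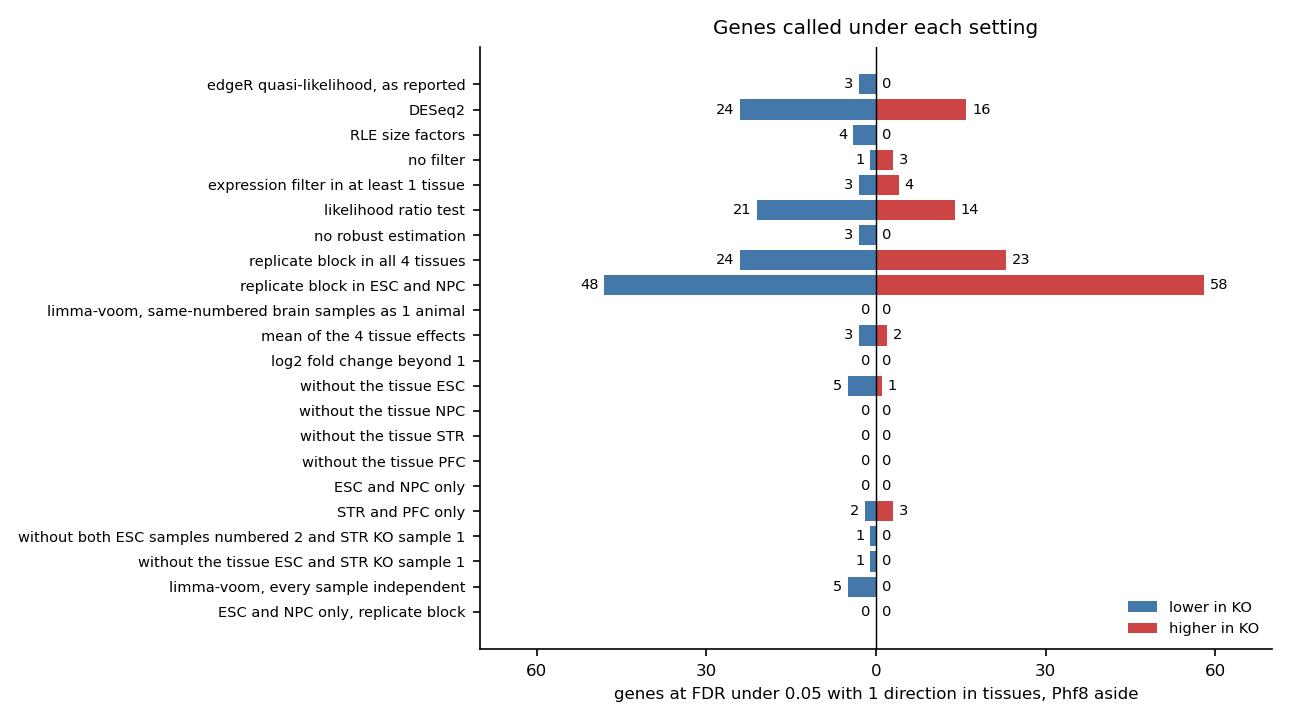
Number of genes at FDR under 0.05 with one direction in the tissues fitted (in all 4 tissues for the settings of ESCs and NPCs only or STR and PFC only), *Phf8* left out, under each setting, with genes lower in KO to the left and higher to the right of 0. The count as reported is 3 lower and 0 higher, and it runs from 0 to 48 lower and from 0 to 58 higher.

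By the naming rule, the genes with one direction in all tissues and the smallest p-values were taken up to 10, so 7 further genes are given as values that did not pass the threshold in edgeR. Of the 10, 8 were lower and 2 higher, and their agreement in sign between tissues was a condition of the choice. With the replicate block in ESCs and NPCs all 7 passed in edgeR, with an FDR from 0.00715 (*Gxylt1*) to 0.0307 (*Dcun1d1*), and with the block in all 4 tissues *Dcun1d1* (0.0550) and *Wdr6* (0.0594) did not. *Angel2*, of a family of RNA-processing phosphatases related to deadenylases, had a shared log2 fold change of -0.22 (SE 0.04, FDR 0.0535). *Tmf1*, a golgin of the Golgi apparatus, had -0.25 (SE 0.05, FDR 0.0610). *Gxylt1*, which adds xylose to O-glucose on EGF repeats of Notch, had -0.37 (SE 0.07, FDR 0.0622). By tissue, *Tmf1* ranged from -0.29 in STR to -0.18 in ESCs. *Gxylt1* lay at -0.46 in STR, -0.50 in PFC, -0.21 in ESCs and -0.27 in NPCs. The test of a difference between tissues gave an unadjusted p of 0.907 for *Tmf1* and 0.415 for *Gxylt1* in edgeR. Among the 10 genes the unadjusted p of that test was smallest for *Wdr6* (0.00262), followed by *Lipo3* (0.0531). None of the 10 passed it after adjustment.

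*Spr*, encoding sepiapterin reductase of the synthesis of tetrahydrobiopterin, the cofactor for making serotonin and dopamine, had -0.29 (SE 0.06, FDR 0.0632). Its level was 46.8 and 48.9 CPM in WT ESCs and 37.0 and 38.5 CPM in KO ESCs, and in PFC it was 42.8, 49.7 and 58.4 CPM in WT and 35.4, 38.1 and 38.9 CPM in KO. KO and WT did not overlap in 3 tissues, and in STR they did (39.1 to 49.2 CPM in WT, 36.05 to 42.05 CPM in KO). *Dcun1d1*, which promotes attachment of NEDD8 to cullins, had the smallest effect of the 10, at -0.18 (SE 0.04, FDR 0.0664), with tissue values from -0.25 in ESCs to -0.15 in STR and no overlap of KO with WT in any tissue.

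The 2 genes of the 10 that lay higher were *Fam13a* and *Wdr6*. *Fam13a*, a RhoGAP-domain protein linked to lipid metabolism, had 0.35 (SE 0.07, FDR 0.0622) on the log2 scale, with 23.7, 22.2 and 21.5 CPM in WT STR and 37.5, 30.4 and 30.9 CPM in KO STR. In ESCs it was close to the limit of detection, between 8 and 13 reads a sample, so its direction there rests on few counts. *Wdr6*, a WD-repeat protein that acts with a tRNA methyltransferase, had 0.32 (SE 0.06, FDR 0.0664). Its level in PFC was 132, 130.3 and 132 CPM in WT and 176, 166 and 201 CPM in KO, well apart, and in STR 176, 194 and 195 CPM in WT and 309, 246 and 283 CPM in KO. In ESCs its log2 fold change was 0.00 (SE 0.11), with the KO samples on both sides of the WT samples, so it met the rule of sign by a value next to 0. *Wdr6* overlaps *Dalrd3* on the opposite strand, and reads of the pair cannot be told apart where counting used no strand.

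**Figure D3:**
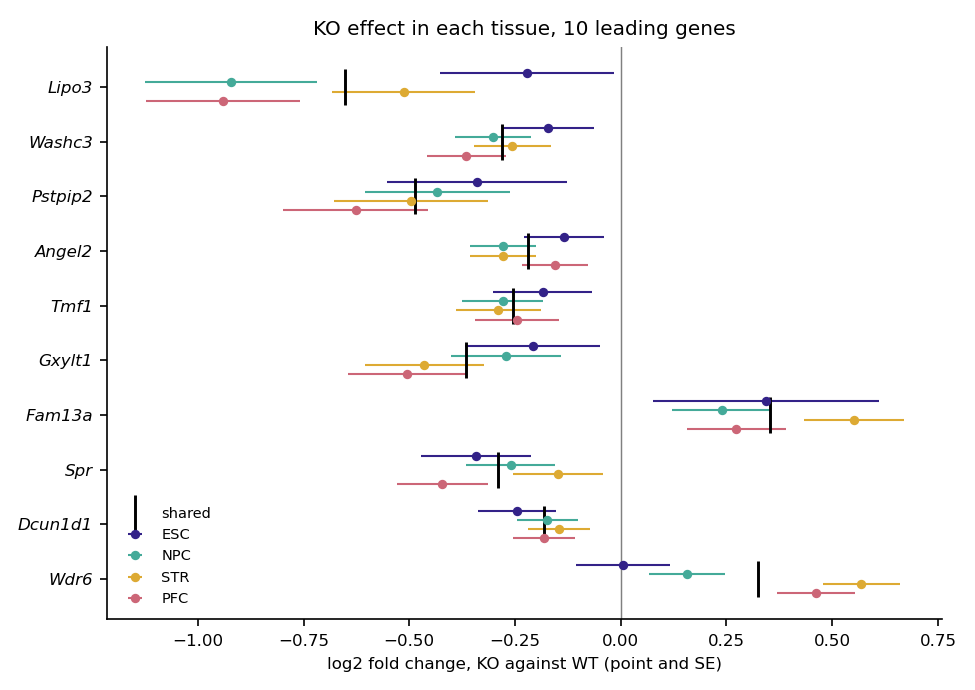
Log2 fold change of KO against WT in each tissue (points with SE) for the 10 leading genes, with the shared estimate as a black bar and negative values lower in KO. The sign was a condition of the choice, but *Dcun1d1* keeps within -0.25 to -0.15 whereas *Wdr6* runs from 0.00 in ESCs to 0.57 in STR.

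At an FDR under 0.1 the shared model held 23 genes lower in KO besides *Phf8* and 9 higher (0.195% of genes with *Phf8*, 0.073%). All 32 had the same sign in the 4 tissues, against 18.8% of all genes tested. This agreement is no separate result, since choosing by the shared effect in the same samples favours one sign. The log2 fold changes of the 32 were small, between 0.15 and 0.71 in size. The largest was that of *Adcy7*, an adenylyl cyclase, at 0.71 (SE 0.16, FDR 0.0993), with 0.91 in STR and 0.80 in PFC. Named here after their values were seen, *Hes6*, a bHLH factor that promotes neuronal differentiation, had 0.32 (FDR 0.0664) and *Nnt*, the mitochondrial transhydrogenase that carries a deletion in some C57BL/6J mice, had 0.23 (FDR 0.0825).

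Separation of the samples, a description that needs no model, was as rare. In 7 genes, or 0.0568% of those tested, every KO sample lay below every WT sample in all 4 tissues: *Phf8*, *Washc3*, *Pstpip2*, *Dcun1d1*, *Fam53a* (shared log2 fold change -0.22), *Klhl8* (-0.24) and *Ssna1* (-0.17), and 0 genes had every KO sample above. In single tissues every KO sample lay below every WT sample in 10.1% of genes for ESCs, 4.98% for NPCs, 5.58% for STR and 7.3% for PFC. KO lay wholly above WT in 10.1%, 3.54%, 6.82% and 9.17% in that order. Signs alone went the same way in the 4 tissues for 2320 genes (18.8%), 1142 higher (9.27%) and 1178 lower (9.56%). The sign matched between a pair of tissues in 60.2% of genes for STR and PFC, 55.6% for ESCs and NPCs, and 50.1% for ESCs and PFC.

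Cultured cells and brain share no samples, so calls made in one could be read in the other. ESCs and NPCs alone gave 0 genes besides *Phf8* in edgeR (0.00811% of genes with it). STR and PFC alone gave 11, of which 7 were higher and 4 lower (0.0974% of genes with *Phf8*). In cultured cells 6 of the 11 (54.5%) had the same sign, against 53.8% of all genes tested, and 0 of the 11 had an unadjusted p under 0.05 there with that sign, against 1.99% of all genes. The share matching in sign was thus near that of genes at large. The sign of brain was found in ESCs and in NPCs alike for 5 of the 11 (45.5%), against 30.1% of all genes. These models of cultured cells used no pairing of samples. With the replicate number as a block, added after seeing the data, the cultured cells again gave 0 genes besides *Phf8* in edgeR, 6 of the 11 had the same sign, and 2 of the 11 (18.2%), *Creg1* and *Gxylt1*, also had an unadjusted p under 0.05, against 7.65% of all genes. *Pcdh19*, an X-linked cell adhesion protein of neurons, led them at 0.68 (log2, SE 0.08, FDR 0.00130 in edgeR) in brain and 0.13 (SE 0.68) in cultured cells. *Sdk1*, an adhesion molecule of synapses, had 0.72 (SE 0.10) and 0.25 (SE 0.34). *Ezr*, which links actin to the membrane, had -0.30 (SE 0.05) in brain and 0.19 (SE 0.19) in cultured cells. The errors in cultured cells without the block were wide, and the interval of 1 SE for *Pcdh19* takes in the value found in brain. With the block it did not, at 0.12 (SE 0.11) for *Pcdh19* in cultured cells. The block gave 0.19 (SE 0.21) for *Sdk1* and 0.17 (SE 0.08) for *Ezr*, the latter opposite in sign to brain. *Gxylt1* had the smallest p in culture, with -0.49 (SE 0.08) in brain and -0.25 (SE 0.11, unadjusted p 0.0535 in edgeR) in culture, where the block gave -0.25 (SE 0.05, FDR 0.136). *Creg1*, a glycoprotein of lysosomes, had -0.34 (SE 0.05) in brain and -0.28 (SE 0.16) in culture, where the block gave -0.32 (SE 0.13, FDR 0.356).

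**Figure D4:**
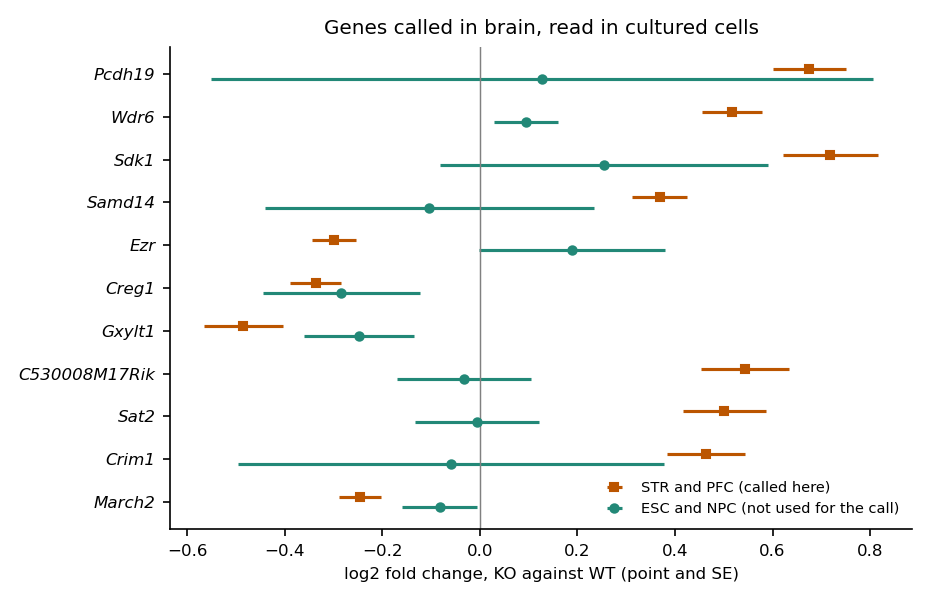
Log2 fold change of KO against WT (points with SE) for the 11 genes called in STR and PFC together, in brain (orange squares) and in ESCs and NPCs (green circles, no replicate block), which took no part in the call. In cultured cells 6 of the 11 lie on the same side of 0 as in brain.

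A test of whether the KO effect differed between the tissues called 0 genes in edgeR's quasi-likelihood test, with 374 (3.03%) at an unadjusted p under 0.05, whereas DESeq2 called 4 and edgeR's likelihood ratio test 5. At an unadjusted p under 0.05 in edgeR there were 1261 genes with the replicate block in all 4 tissues. With the block in ESCs and NPCs there were 1170, and both fits called 0 at an FDR under 0.05. The smallest p without a block belonged to *Kif3a*, a motor subunit of kinesin-2. On the log2 scale it was at -0.52 in ESCs and -0.12 in NPCs but at 0.15 in both STR and PFC (FDR of the difference 0.385). *Vps4a*, an ATPase of the ESCRT pathway, had -0.59 in ESCs and -0.01 in PFC. *Abhd6*, which degrades the endocannabinoid 2-arachidonoylglycerol, had -0.68 in ESCs and 0.07 in PFC. Of the 5 genes with the smallest p, all but *Erbin* had their largest effect in ESCs, the tissue with 2 samples a group. In the model with 8 groups, the contrast of each tissue called few genes in edgeR at an FDR under 0.05. That model estimates the spread of a gene over all 22 samples, so the spread of cultured cells enters the tests of brain. These are thus not counts from a fit of a tissue alone. ESCs gave *Phf8* and *Vps4a* (0.0162%), NPCs *Phf8* (0.00811%), STR *Phf8* and *Wdr6* (0.0162%), and PFC *Phf8* and *Erbin* (0.0162%). The shares at an unadjusted p under 0.05 were 2.31%, 5.05%, 5.1% and 4.43% in that order.

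Pathways tied to PHF8 were read from lists, as counts beside those of all genes. In no list was a member called at an FDR under 0.05 other than *Phf8*, by edgeR. The median log2 fold change over all genes was 0.00. Of 26 tested genes of the E2F pathway and cell cycle, 2 were higher and 4 lower at an unadjusted p under 0.05, where 3.64% and 4.11% of all genes were, and the median was -0.07. One direction in the 4 tissues was found in 23.1% of this list, 1 gene higher and 5 lower, against 18.8% of all genes. The lowest of its values was that of *Pcna*, the sliding clamp of replication, at -0.25 (FDR 0.399), followed by *Ccna2*, cyclin A2, at -0.24 (FDR 0.530). *E2f5*, a repressor E2F, had -0.22 (SE 0.05) and the smallest FDR of the list, 0.0993, while *Ccnd1*, cyclin D1, had 0.26 (FDR 0.535). Levels of this list differed far more between tissues than between genotypes, from 9543 to 11299 CPM summed in ESCs to 700.5 to 829 CPM in brain.

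Of 20 genes of RNA polymerase I and the nucleolus, 1 passed an unadjusted p under 0.05, *Npm1*, nucleophosmin, at -0.13 (FDR 0.509), 6 had lower values in all 4 tissues, and the median was -0.04. Of 21 enzymes that write or erase the marks PHF8 acts on, the single one at that level was *Kmt5a*, which deposits H4K20me1, at -0.12 (FDR 0.556). *Ehmt2*, which deposits H3K9me2, had 0.01 (SE 0.04). Of 16 genes of H3K4 methylation, HCF1 and *Zfp711*, the one at that level was *Wdr5*, a scaffold of the methyltransferase complexes, at -0.14 (FDR 0.442). The shares of these 3 lists with one direction in the 4 tissues were 30%, 19% and 18.8%, where all genes had 18.8%.

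Of 14 serotonin receptors, 3 were expressed highly enough in each tissue to be tested. *Htr1b*, an inhibitory serotonin receptor, had 0.35 in the shared model (log2, SE 0.16, edgeR FDR 0.606), made up of 0.86 in PFC and 0.08 to 0.23 elsewhere. *Htr2a*, an excitatory receptor of cortical neurons, had 0.36 (SE 0.19, FDR 0.699), with 0.68 in PFC, 0.40 in ESCs, 0.15 in STR and 0.09 in NPCs. *Htr3a*, a subunit of the ion channel receptor, had 0.05 (SE 0.15, FDR 0.985), with -0.30 in NPCs and 0.08 to 0.20 elsewhere. The largest values of *Htr1b* and *Htr2a* were thus in PFC, and no shared effect was called.

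Genes close to *Phf8* are inherited together with the targeted allele on the mixed background. Of 204 genes that start within 5 Mb of the *Phf8* start, 33 were tested, 0 were called in edgeR, 4 were higher and 0 lower at an unadjusted p under 0.05 (all genes 3.64% and 4.11%), and the median log2 fold change of the 33 was 0.05. *Tspyl2*, a nucleosome assembly protein, started 822 kb downstream and had 0.17 (SE 0.04, FDR 0.200), with values between 0.10 and 0.21 in the 4 tissues. *Rragb*, a GTPase of nutrient signalling to mTORC1, started 1619 kb downstream and had 0.20 (SE 0.06, FDR 0.258). *Fam120c* and *Fgd1*, both upstream, had 0.21 (SE 0.08) and 0.13 (SE 0.06). The values of this latter pair came from brain, at 0.26 to 0.36, and were between -0.11 and 0.07 in cultured cells.

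**Figure D5:**
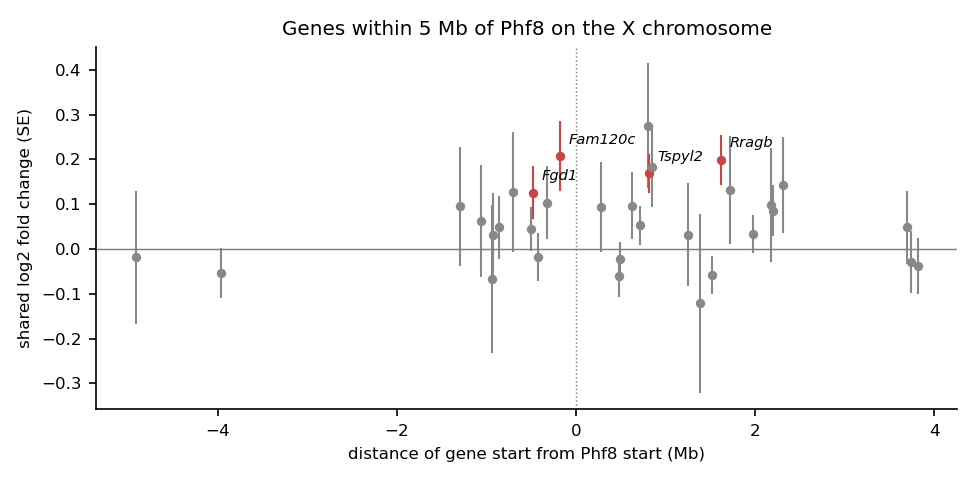
Shared log2 fold change with SE (vertical axis) of the 33 tested genes within 5 Mb of *Phf8*, against the distance of their start from that of *Phf8* in Mb. The 4 genes with an unadjusted p under 0.05 are red, and all lie above 0, between 0.13 and 0.21.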

How the data were processed

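RNA from 22 samples was sequenced after TruSeq library preparation. The authors deposited raw counts of reads per gene from HTSeq on Ensembl 75, after alignment to mm10. The submitters' processing notes name CASAVA 1.7 and STAR. The deposited ESC and NPC counts are named as unstranded, and the strand setting of the brain counts is not given in the sources used here. Rows that name no gene were left out. Among them, alignments not placed uniquely were 7.62% to 45.5% of all entries of a table, the larger shares in cultured cells, and reads on no gene were 9.42% to 16.8% of reads on genes, on none or on several. Counts of replicates differed by more than sampling noise in every pair (chi-square divided by its degrees of freedom, 1.89 to 40.5).

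Names and positions came from GENCODE M21. Counts were analysed with edgeR 4.0.16 in R 4.3.3: TMM, edgeR's expression filter in each tissue, and a robust quasi-likelihood test of genotype with tissue as covariate and no replicate block. Tissue effects and their difference came from a model with 8 groups. DESeq2 1.42.0 and limma 3.58.1 were alternatives. FDR is Benjamini-Hochberg over 12324 genes. The script was tested on simulated data.

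Genes named were *Phf8* and its paralogs, called genes filled up to 10 by p with one direction in all tissues, the 5 genes with the smallest p for a difference between tissues, and members of lists where their list is described. Genes and lists were chosen with earlier results of these data known. Of the lists not described in the text, astrocyte (3 members tested), endothelial (2), mitochondrial (7) and immediate early genes (9), among others, held 0 called members. Hypothalamic, choroid plexus, red blood cell and microglia lists had 0 members tested, so only their levels were read. The pairing of replicate numbers was checked by correlating deviations from group means, and it was met in NPCs (0.60, 0.74 and 0.57). Total counts per sample ran from 5898286 to 15539811, and the number of samples limits precision.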

Additional observations from a re-analysis of the deposited data

Results flagged for a closer look

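The set examined by name held *Phf8* and its paralogs, the called and leading genes, and the sex-linked markers. It also held the genes picked by the smallest p for a difference between tissues. Other genes named in the text were not examined by name. In this set, the KO effect of 3 genes had opposite signs in different tissues. Their KO samples lay wholly above WT in a tissue and wholly below it in another. All 3 were among the genes picked by the smallest p for a difference between tissues. The opposite signs are thus no separate result, since the choice used the same samples. The called and leading genes had been chosen for one sign in all tissues. *Kif3a* had a log2 fold change of -0.52 in ESCs and -0.12 in NPCs, and of 0.15 in STR and 0.15 in PFC. *Erbin*, a scaffold protein of the ERBB2 receptor, had 0.18 in NPCs and -0.65 in PFC. *Prrg1*, an X-linked membrane protein with a Gla domain, had 1.23 in ESCs and -0.29 in PFC. The adjusted p of the difference between tissues in edgeR's quasi-likelihood test was 0.385 for *Kif3a* and 0.695 for *Erbin*, and none of the 3 passed. For *Prrg1* the unadjusted p was 0.000591. In DESeq2 the adjusted p of the difference was 0.00443 for *Kif3a* and for *Erbin* and 0.223 for *Prrg1*. Over all 12324 genes tested, 449 (3.64%) had such opposite separation in at least 1 pair of tissues.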

How the results depend on the processing

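*Phf8* passed the threshold under all 21 alternatives and in all 22 fits without 1 sample. Of the 21 alternatives, *Lipo3* was called in 13, *Washc3* in 10 and *Pstpip2* in 8, and no called value changed sign. Against 0 genes higher and 3 lower, the counts were 16 and 24 in DESeq2, 14 and 21 in the likelihood ratio test, 3 and 1 with no filter on low counts, 4 and 3 with the filter met in at least 1 tissue, 2 and 3 for the mean of the 4 tissue effects, and 0 and 0 with a log2 fold change beyond 1 required. The replicate block gave 23 higher and 24 lower in all 4 tissues, and 58 and 48 in ESCs and NPCs, and ended none of the 3 calls. Limma-voom with brain samples as animals gave 0 and 0, and with every sample independent (chosen after seeing the data) 0 and 5. Counts were 1 and 5 without ESCs, 0 and 0 without NPCs, without STR or without PFC, 0 and 0 in ESCs and NPCs only, with or without the replicate block (the former chosen after seeing the data), and 3 and 2 in STR and PFC only. For these sets of 2 tissues one direction was asked in all 4 tissues; in any direction 11 were called in STR and PFC, 7 higher and 4 lower. Without both ESC samples numbered 2 and STR KO sample 1, and without ESCs and STR KO sample 1, 0 were higher and 1 lower (both chosen after seeing the data). Leaving out 1 sample gave 0 to 2 higher, 0 to 5 lower, and 0 to 3 genes whose effect differed between tissues, a count that was 4 in DESeq2 and 5 in the likelihood ratio test against 0. Settings that leave out tissues also test fewer samples, and the cause of the other shifts was not tested. The brain samples were the shallower, and the effect of depth was not tested.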
